A study of Mus musculus with 6 samples.

Results

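The cytoplasmic ribosomal protein genes were followed through the limb buds of E11.5 mouse embryos, profiled by single-cell RNA-seq with counting of transcript 3′ ends. Members were all genes counted in both deposited count matrices whose symbol was Rpl or Rps followed by a digit, or Rplp0, Rplp1, Rplp2 or Rpsa, leaving out the 9 Rps6k kinase genes and 7 entries marked as pseudogenes. This gave 82 members among 15668 genes. Of these, 31 coded for canonical proteins of the small subunit and 45 for those of the large subunit, and the other 6 were paralogs or assembly factors that carry a similar name (Rps27l, Rpl22l1, Rpl39l, Rpl36al, Rpl7l1 and Rps19bp1).

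The cytoplasmic ribosome joins a small subunit, which reads the mRNA, to a large subunit, which forms the peptide bond, and each is built in the nucleolus from ribosomal RNA and many proteins made in near equal numbers. The mRNAs of these proteins are among the most abundant in a growing cell, and most begin with a terminal oligopyrimidine (TOP) tract through which mTOR signalling sets their translation. In humans, loss of 1 copy of several of these genes causes Diamond-Blackfan anaemia, which can include thumb and limb defects, and the mouse mutant of Rpl38, Tail short, has skeletal patterning defects.

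The 6 libraries formed 6 groups of 1 library each, and all came from E11.5 limbs that were dissociated with trypsin. The C57BL/6 wild-type hindlimb and the Dup hindlimb carry the strain label c57bl6.J, and Dup is homozygous for a tandem duplication at the Lbx1/Fgf8 locus. The G4 wild-type and Inv1 libraries, a hindlimb and a forelimb of each, carry the strain label G4 ESC, and Inv1 is homozygous for an inversion at the same locus. Edited lines came from mouse embryonic stem cells by diploid or tetraploid aggregation (diploid aggregation leaves host cells in the founder), and line stocks were kept by crosses to C57BL/6. G4 stem cells are a 129sv/C57Bl6 hybrid. No source used here gives the number of embryos per library, and strain and count matrix cannot be told apart.

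After a limit of 2000 detected genes, the libraries held 2249 to 5947 cells, 22660212 to 59403104 unique molecular identifiers (UMIs, 1 per captured transcript) and a median of 6729 to 10098 UMIs per cell. Pairs of libraries shared 3 to 14 cell barcodes, at most 0.399% of the smaller library. The G4 forelimb library stood apart, in that 50.5% of 8439 genes were higher in its mesenchyme than in the G4 hindlimb by a log2 ratio of at least 0.32, so results that rest on it are also given without it where that changes them. Class names are those the authors deposited. Markers were highest in the class they should mark for 6 of 6 AER, muscle, endothelial and immune genes, 5 of 6 neuronal genes and 3 of the 3 counted keratinocyte genes, but for 3 of 6 mesenchyme genes and 0 of 6 dorso-ventral ectoderm genes, whose summed level was 1891 CPM (counts-per-million, scaled to the UMIs of the class) in that class and 6223 CPM in another. The dorso-ventral ectoderm is therefore a deposited name here and not a checked identity. Class comparisons are descriptions, since the classes were clustered on genes of these same cells.

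In mesenchyme, the connective and skeletal progenitors that made up 22760 of the cells, ribosomal protein genes took 19.1% to 24.1% of all UMIs, counted as 1 tag per transcript so that gene length does not enter the level. Their median level over the 6 libraries was 2821 CPM. Of the members, 72 reached 1000 CPM, a level that 137 genes reached in all, and 67 of the 100 most abundant genes were members. Among the 5 highest mean levels were those of Rpl13 (5981 CPM), the ubiquitin fusion gene Rps27a (5405 CPM), Rps24 (5325 CPM, a Diamond-Blackfan gene) and Rps20 (4811 CPM). At the low end, Rpl39l, a testis-enriched paralog of the exit-tunnel protein Rpl39, had a mean of 0.218 CPM, with 0 to 17 UMIs per library, and the 0 in the G4 forelimb allows a level of up to 0.128 CPM (3 counts of the total). Rps19bp1, a nucleolar binding partner of Rps19, had 92.8 CPM and the assembly factor Rpl7l1 had 149 CPM.

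A pair of canonical large subunit genes sat far below the other proteins of their particle. Rpl24, whose mutation in the Belly spot and tail mouse causes skeletal and pigment defects, was counted at 12.1, 13.7, 13.4, 14.4, 22.2 and 18.3 CPM in the C57BL/6, Dup, G4 hindlimb, Inv1 hindlimb, G4 forelimb and Inv1 forelimb libraries, a mean of 15.7 CPM. Rpl13a had a mean of 304 CPM. As every ribosome holds 1 copy of each of these proteins, the counted levels of these genes stood well below those of their partners in all 6 libraries. The counts depend on where reads were assigned: 76 of the 82 members had at least 1 intronless copy of their coding sequence elsewhere in NCBIM37 (over 90% of the length at 95% identity or more), with a median of 5 copies. Rpl24 had 3 such copies and Rpl13a had 2, and the part of such copies in the low counts was not tested.

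One difference within the set was among its shortest members, so the coding sequences of 3 of them are shown here to let their sizes be compared. The sequences are those of an annotation of NCBIM37 (mm9), on the coding strand from 5′ to 3′, and capitals mark the start and stop codons. Rps28, a Diamond-Blackfan gene, codes for a small subunit protein, Rpl38 for a large subunit protein needed for translation of a subset of Hox mRNAs, and Rpl39 for a protein of the peptide exit tunnel. Their genes lie at chr17:33955972-33961507 on the minus strand, chr11:114529838-114533645 (plus) and chrX:34622515-34625397 (minus).
Rps28: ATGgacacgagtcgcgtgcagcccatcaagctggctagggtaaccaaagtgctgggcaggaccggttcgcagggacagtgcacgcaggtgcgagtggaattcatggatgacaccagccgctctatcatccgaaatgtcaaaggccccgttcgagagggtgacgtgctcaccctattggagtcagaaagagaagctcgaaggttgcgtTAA
Rpl38: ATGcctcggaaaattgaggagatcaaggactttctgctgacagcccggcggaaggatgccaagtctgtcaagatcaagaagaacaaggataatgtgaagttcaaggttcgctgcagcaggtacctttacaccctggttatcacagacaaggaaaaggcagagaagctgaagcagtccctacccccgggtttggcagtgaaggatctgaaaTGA
Rpl39: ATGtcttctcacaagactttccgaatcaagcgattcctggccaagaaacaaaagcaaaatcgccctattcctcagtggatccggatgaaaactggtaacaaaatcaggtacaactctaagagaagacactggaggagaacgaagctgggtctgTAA
These coding sequences hold 210, 213 and 156 bases.

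The summed share of all members was first compared between libraries. In mesenchyme the members took 20.5% of UMIs in the C57BL/6 wild-type hindlimb, 21.7% in Dup, 24.1% in the G4 hindlimb, 23.5% in the Inv1 hindlimb, 19.1% in the G4 forelimb and 22.7% in the Inv1 forelimb. The G4 hindlimb was thus the highest and the G4 forelimb the lowest, although both are wild type. Single mesenchyme cells also varied within a library: the interquartile range of the share over cells was 7.27 percentage points in C57BL/6, 5.09 in Dup and 4.07 in the G4 hindlimb. Intervals below are at 95% and cover counting error only, so they say nothing of the spread between embryos, and with 1 library per group these shares were not tested between groups.

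**Figure D1:**
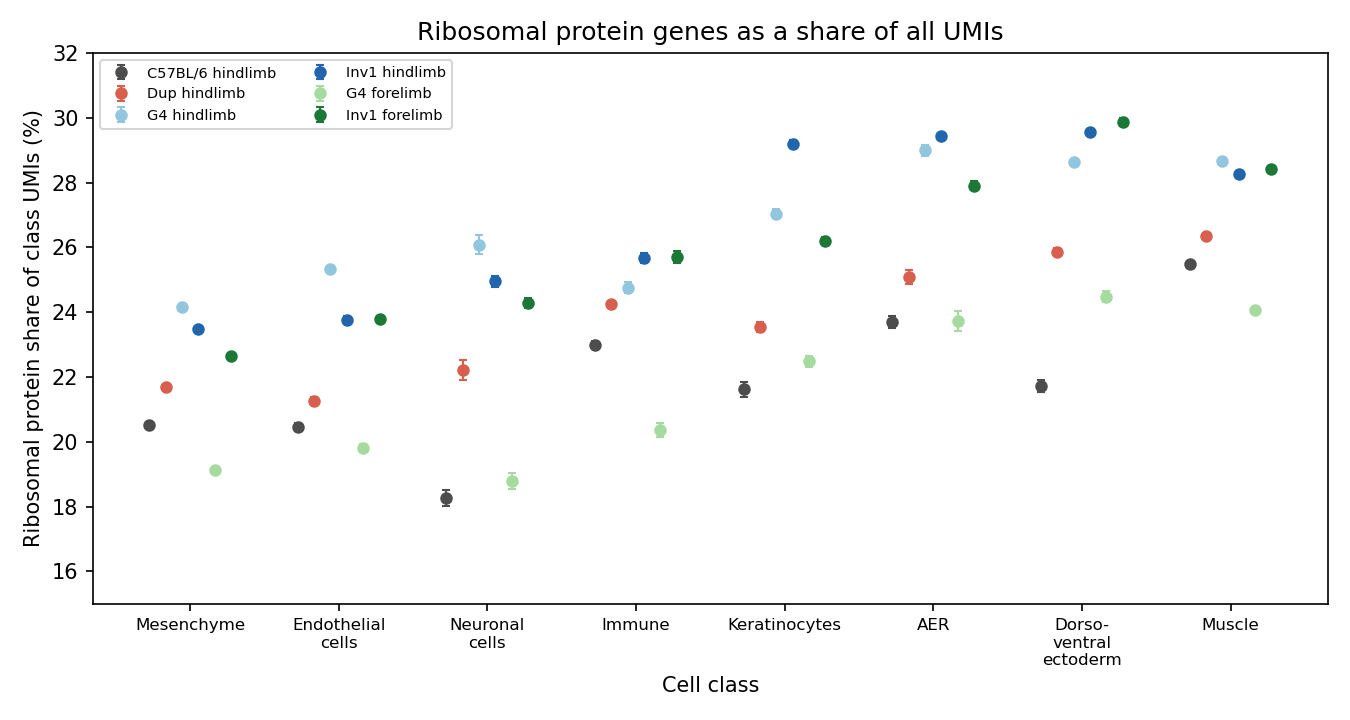
Ribosomal protein genes as a percent of all UMIs (vertical axis, from 15 to 32) in each of 8 cell classes (horizontal axis), with 1 point per library and bars for 95% binomial intervals of counting error. Muscle sits above mesenchyme in all 6 libraries, and the G4 forelimb (19.1% in mesenchyme) sits below the G4 hindlimb (24.1%) in every class.

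Dup had 1.06 times the mesenchymal share of C57BL/6 (1.057 to 1.059). The higher share held in 5 of 6 finer mesenchyme classes, from 1.14 times in muscle connective tissue (20.5% against 18.0%), but not in stylopod chondrocyte progenitors (20.91% against 22.02%, ratio 0.9498). The C57BL/6 share moved with the depth of the cell. In 4 equal groups of cells by UMI count it was 16.8%, 19.9%, 21.2% and 21.5% from shallow to deep, against 20.33%, 22.02%, 21.82% and 22.09% in Dup. Among cells with over 3000 detected genes the ratio was 1.02. Haemoglobin RNA, which marks red blood cells, was at 4111 CPM in the mesenchyme of C57BL/6, 2698 CPM in Dup and 794 to 1266 CPM in the others, and without it the ratio was 1.06. The gap was thus widest in the shallowest cells, and in the G4 hindlimb the share ran the other way, from 24.9% in the shallowest group to 23.6% in the deepest.

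In mesenchyme Inv1 differed from G4 in opposite directions in the hindlimb and the forelimb. The hindlimb share was 0.972 times that of G4 (0.971 to 0.972) and the forelimb share 1.19 times (1.184 to 1.187). Since the 2 wild types themselves differed by more (G4 forelimb against G4 hindlimb, 0.791), the forelimb value rests on a library that stood apart. G4 against C57BL/6 wild-type hindlimbs gave 1.18 (1.176 to 1.178). In the AER, dorso-ventral ectoderm, keratinocytes and immune cells the Inv1 share was above that of G4 in both limbs, by 1.01 to 1.08 times in the hindlimb and 1.17 to 1.26 times in the forelimb. These comparisons share wild-type libraries, so a high or low library enters more than 1 of them.

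Single members were compared next. A gene was counted as higher or lower when its log2 CPM ratio was at least 0.32 or at most −0.32, among genes with a mean of 10 CPM or more over the pair, which 81 members reached. For Dup against C57BL/6 in mesenchyme, 0 members were higher, against 2.07% of all genes, and 5 were lower, against 10.7% (Rps29, Rps28, Rpl38, Rps27 and Rpl35). For Inv1 against G4 in the hindlimb, 0 members were higher and 0 lower, against 2.96% and 1.18% of genes. In the forelimb 10 members were higher (2.64% of genes) and 0 lower (33.3% of genes). For the G4 forelimb against the G4 hindlimb, 1 member was higher (50.5% of genes) and 47 were lower (7.93% of genes). For G4 against C57BL/6 hindlimbs, 33 members were higher (6.72% of genes) and 2 lower (22.9% of genes). These counts depend on the scaling. With median-of-ratios scaling, 4 members were higher and 5 lower in Dup, and 73 higher and 0 lower in the Inv1 forelimb. By the same scaling 1 was higher and 79 lower in the G4 forelimb, and 54 higher and 2 lower in G4 against C57BL/6. This scaling takes the median log2 ratio over genes from every gene (−0.18 in the Inv1 forelimb, 0.39 in the G4 forelimb). The shares of genes above are on the CPM scale and do not apply to these 4 comparisons as rescaled.

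The medians moved apart from those of other genes in the same way. The median log2 ratio of the members was 0.10 for Dup, −0.05 for the Inv1 hindlimb, 0.24 for the Inv1 forelimb, −0.34 for the G4 forelimb and 0.28 for the G4 hindlimb against C57BL/6. The median over all genes was −0.07, 0.04, −0.17, 0.33 and −0.11, each of the opposite sign. CPM is scaled to a fixed total, so a larger member share leaves a smaller one for other genes. The opposite signs are therefore not a separate result. Both subunits moved by like amounts: the summed ratio was 1.07 for the small and 1.05 for the large subunit in Dup, and 1.20 and 1.17 in the Inv1 forelimb. The small subunit held 45.3% to 47.6% of the canonical members' UMIs in all 8 classes of all 6 libraries.

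Muscle cells gave the same picture in fewer cells (112 to 268 per library). For Dup 0 members were higher and 7 lower, where 10.3% and 16.8% of genes passed. For Inv1 in the hindlimb 0 members passed in either direction (13.6% and 5.6% of genes). In the forelimb 14 were higher and 1 lower (9.11% and 40.3% of genes). For the G4 forelimb against hindlimb 1 was higher and 22 lower (50.8% and 12.1% of genes), and for G4 against C57BL/6 25 were higher and 3 lower (11.4% and 27.4% of genes).

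A joint fit asked whether Inv1 differed from G4 over both limbs, with limb as a term and 2 libraries per genotype. By the quasi-likelihood test of edgeR with Benjamini-Hochberg adjustment over all genes, 0 of 82 members passed 0.05 in mesenchyme, where 1.61% of 14579 genes passed, and 0 of 81 in muscle, where 0.835% of 10540 genes passed. At an unadjusted p under 0.05 the counts were also 0 and 0, beside 958 and 573 of all genes, and with scaling by total UMIs alone they were 1 and 1, beside 695 and 464. DESeq2 gave 0 and 0 members at both thresholds, where 10 of 15122 genes in mesenchyme were higher and 12 lower after adjustment and 7 and 1 of 12388 in muscle. At an unadjusted p under 0.05 DESeq2 passed 287 and 133 genes. The median fitted log2 change of the members was 0.15 in mesenchyme and 0.17 in muscle. These values average limbs that went opposite ways. On the CPM scale the member medians in mesenchyme were −0.05 in the hindlimb and 0.24 in the forelimb. In muscle they were −0.04 and 0.23. The forelimb pair holds the G4 forelimb library that stood apart. Rps27 had a fitted log2 change of 0.33 with an SE of 0.32 in mesenchyme. The fit has 1 residual degree of freedom, so a member that missed the threshold is not shown to be alike in both genotypes.

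Of the 10 members with 100 CPM or more and at most 300 coding bases, 9 had a log2 ratio below 0 in Dup. Rps29, a small subunit protein and Diamond-Blackfan gene, was at 2959 CPM in C57BL/6 and 2036 CPM in Dup, and at 3526, 3665, 3038 and 4094 CPM in the G4 hindlimb, Inv1 hindlimb, G4 forelimb and Inv1 forelimb. The Dup library was the lowest of the 6 and the log2 ratio to C57BL/6 was −0.54 (ratio 0.688, 0.680 to 0.696). Rps28 was at 2675 CPM in C57BL/6, 1884 CPM in Dup and 3104, 3282, 2793 and 3459 CPM in the G4-background libraries, a log2 ratio of −0.51. Rpl38 was at 2073 CPM in C57BL/6, 1493 CPM in Dup and 2156, 2305, 1988 and 2305 CPM in the others, a log2 ratio of −0.47. For each of these genes Dup alone lay below every other library. Rps27, a zinc-finger protein of the small subunit, was at 1506 CPM in C57BL/6, 1109 CPM in Dup and 1868 to 2610 CPM in the G4-background libraries. The log2 ratio of Rps27 was −0.44, and those of further short members were −0.31 for Rps21, just outside the limit of −0.32, −0.28 for Rpl37, −0.22 for Rpl37a, −0.20 for Rpl39 and −0.12 for Rpl36a. Among longer members Rpl35 went with them (769 CPM in C57BL/6, 568 CPM in Dup, log2 ratio −0.44). The highest were Rps2 (0.31, just under the limit), Rpl13 (5452 and 6560 CPM, 0.27) and Rpl29 (0.23). In muscle the log2 ratios of Rps29, Rps28 and Rpl38 were −0.58, −0.55 and −0.54.

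**Figure D2:**
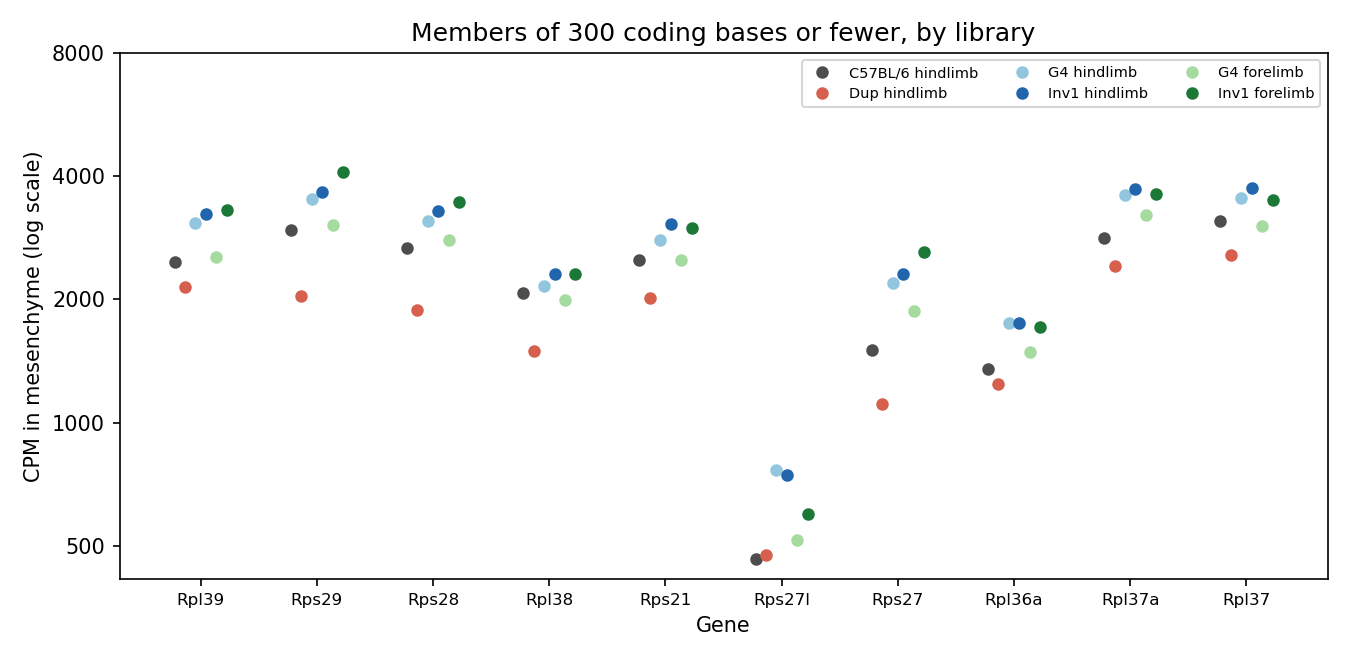
CPM in mesenchyme (vertical log axis) of members with up to 300 coding bases (horizontal axis), 1 point per library. The Dup points of Rps29 (2036 CPM), Rps28 (1884 CPM) and Rpl38 (1493 CPM) lie below those of the other 5 libraries.

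The 11 members of at most 300 coding bases were then set against the rest, a split chosen after these values were seen. In Dup against C57BL/6 the 10 of them with 100 CPM or more had a median log2 ratio of −0.29, with a range from −0.54 to 0.03 (Rps27l, a p53-induced paralog of Rps27, was the one above 0), and the 69 longer members had a median of 0.11. Over the 79 members the Spearman correlation of log2 ratio with coding length was 0.55, a description over genes that share the same 2 libraries. With mRNA length it was 0.30. In mesenchyme other genes did not show the coding-length trend of the members in this comparison: over 1528 non-members at these levels the correlation was −0.30. The 134 short ones had a median log2 ratio of 0.02, as did the longer ones. In the AER short non-members had a median of −0.22 and longer ones −0.03, and in keratinocytes −0.21 and −0.08. Short members had −0.19 and −0.14 in these classes. The gap in non-members was smaller or reversed in muscle (−0.06 and −0.01), dorso-ventral ectoderm (−0.09 and −0.10), immune (−0.01 and 0.01), endothelial (−0.04 and −0.005) and neuronal cells (0.13 and −0.02). Non-members did vary with coding length in the other comparisons in mesenchyme. Their correlation was 0.51 in the Inv1 hindlimb, −0.67 in the Inv1 forelimb, 0.70 for the G4 forelimb and −0.48 for G4 against C57BL/6. Trends with length between libraries were thus not confined to members. The short members' share of all member UMIs was 10.7% in C57BL/6, 8.01% in Dup, 10.97% in the G4 hindlimb, 11.8% in the Inv1 hindlimb, 12.0% in the G4 forelimb and 12.4% in the Inv1 forelimb. Dup was therefore the one library below 10.7%.

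The lower short share was seen in every class of the Dup library. The ratio to C57BL/6 was 0.749 in mesenchyme, 0.749 in muscle, 0.766 in the AER, 0.742 in dorso-ventral ectoderm, 0.840 in keratinocytes, 0.753 in immune cells, 0.758 in endothelial cells and 0.722 in neuronal cells. The keratinocyte ratio rests on 4 C57BL/6 cells, and the neuronal ratio on 7 C57BL/6 and 5 Dup cells. All these ratios come from the same pair of libraries, so the classes do not repeat the comparison. In the 6 finer mesenchyme classes the short members had medians of −0.18 to −0.46 and the longer ones −0.01 to 0.21. With members of up to 400 coding bases the share ratio was 0.904, so the difference lay in the shortest genes. In the other 4 comparisons the ratio in mesenchyme was 1.03 to 1.09. Genotype and library cannot be told apart here.

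**Figure D3:**
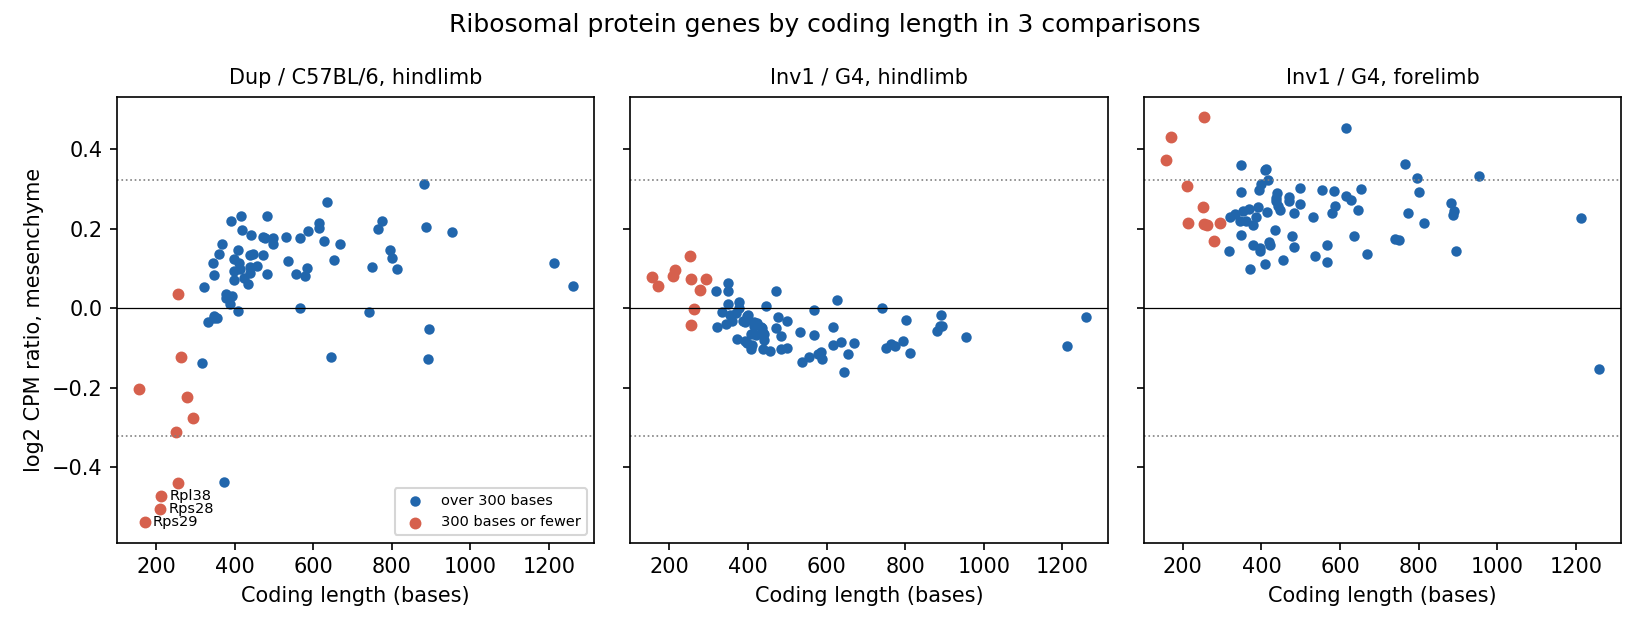
log2 CPM ratio in mesenchyme (vertical axis) against coding length in bases (horizontal axis), 1 point per member of 100 CPM or more, in 3 comparisons of a mutant with its wild type, with members of up to 300 bases in a second colour. In Dup against C57BL/6 the short members lie low (median −0.29) and the longer ones near 0.11, and in the Inv1 hindlimb the order is the reverse (0.07 against −0.05).

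The Inv1 hindlimb ran the other way with a smaller span. Its 10 short members had a median log2 ratio of 0.07 and the 70 longer ones −0.05, and the correlation with coding length was −0.58 over 80 members. The highest were Rps21 (2793 CPM in G4, 3061 CPM in Inv1, log2 ratio 0.13), Rpl38 (2156 and 2305 CPM) and Rps28 (3104 and 3282 CPM). The lowest were the subunit-joining protein Rpl10 (1817 and 1627 CPM, log2 ratio −0.16), Rpl11 (3958 and 3602 CPM), which with Rpl5 forms the 5S particle that binds Mdm2, and Rpl19 (3745 and 3425 CPM). None of these passed 0.32 in size. Non-members went against them in sign, with a correlation of 0.51 over 1457 genes.

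In the Inv1 forelimb nearly all members were higher than in the G4 forelimb, the library that stood apart and the only forelimb control. Rps27 was at 1868 CPM in G4 and 2610 CPM in Inv1, a log2 ratio of 0.48, and Rps29 at 3038 and 4094 CPM, a log2 ratio of 0.43. Rpl4, a protein of the exit tunnel wall, was lower in Inv1 (955 and 859 CPM, log2 ratio −0.15), and Rpl35 had the next lowest log2 ratio (0.10). Counted relative to the median member, 0 members were higher and 2 lower, with no share over all genes given on that scale. The same G4 forelimb was low against the G4 hindlimb in Rpl27 (615 against 966 CPM, log2 ratio −0.65), Rps27l (515 against 764 CPM, −0.57) and Rpl32 (3007 against 4423 CPM, −0.56), and near or above it in Rpl35 (−0.01), Rpl13a (−0.01) and Rpl4 (0.20). Counted relative to the median member, 4 were higher and 0 lower, again with no share over all genes beside them.

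Between the C57BL/6 and G4 backgrounds some members separated more sharply than the sums. Across the 6 libraries, 26 of 81 members were higher in all 4 G4-background libraries than in both C57BL/6-labelled ones, against 18.7% of 8226 genes, and 7 were lower in all, against 16.7%. Without the G4 forelimb library these counts were 54 and 7, against 22.7% and 25.4% of genes. The 7 included Rpl29, Rps2, Rpl21, Rps3a, Rpl6 and the X-linked Rps4x.

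Rpl29 and Rps2 went furthest down. Rpl29, a large subunit protein whose loss in mice slows growth and makes bone fragile, stood at 2023 and 2378 CPM in C57BL/6 and Dup, and at 1039, 968, 766 and 904 CPM in the G4 hindlimb, Inv1 hindlimb, G4 forelimb and Inv1 forelimb. The log2 ratio of the background means was −1.26. Rps2, at the mRNA entry of the small subunit, had 3884 CPM in C57BL/6, 4821 CPM in Dup and 2775, 2665, 1956 and 2350 CPM in the 4 others, a log2 ratio of −0.84. The groups did not overlap in mesenchyme, nor in any of the 8 classes, where the ratio was 0.393 to 0.476 for Rpl29 and 0.472 to 0.614 for Rps2. Rpl29 lies at chr9:106331785-106333899 and Rps2 at chr17:24855061-24858874, both on the plus strand of NCBIM37.

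**Figure D4:**
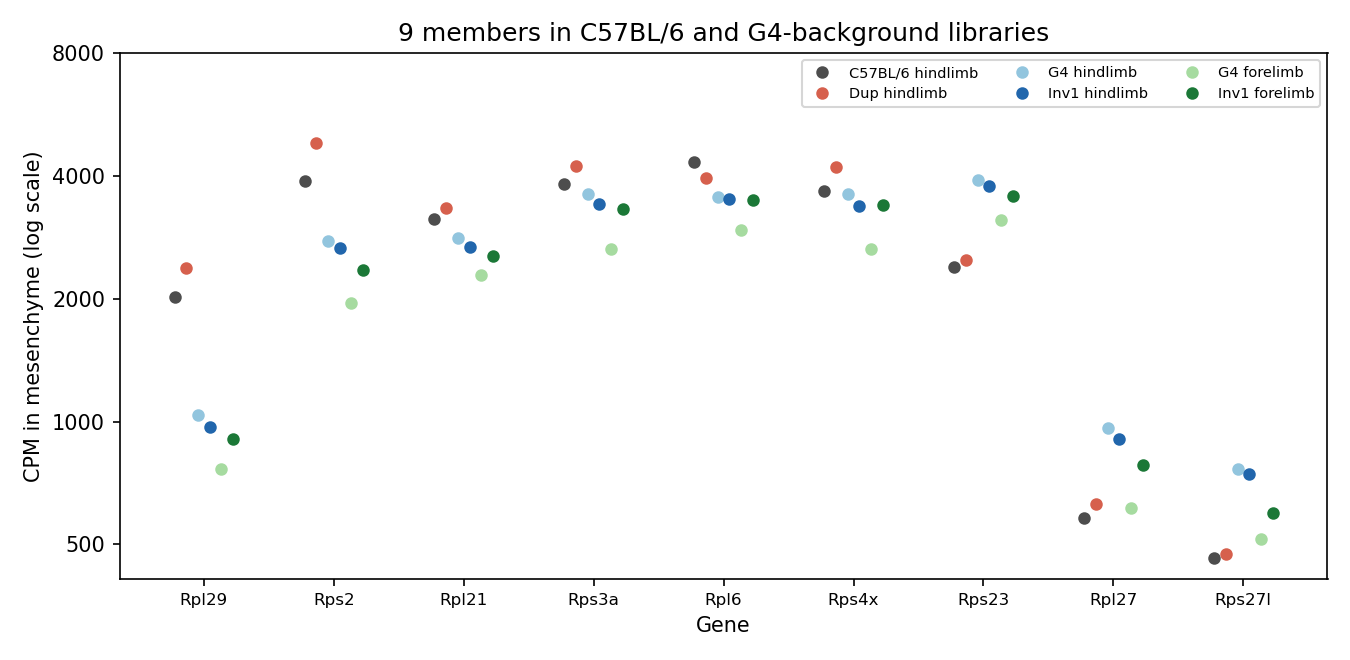
CPM in mesenchyme (vertical log axis) of 9 members (horizontal axis), 1 point per library. For Rpl29 the C57BL/6 pair lies at 2023 and 2378 CPM and the 4 G4-background libraries at 766 to 1039 CPM, while for Rps23 the G4-background libraries lie above.

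In the other direction Rps23, Rps27l and Rpl27 had the highest log2 ratios of G4 to C57BL/6 hindlimbs. Rps23, at the decoding centre, had 2389 CPM in C57BL/6, 2491 CPM in Dup and 3909, 3775, 3120 and 3577 CPM in the G4-background libraries. It was higher without overlap in 8 of 8 classes, and Rps27l in 7. Rpl27 had the highest ratio (log2 0.74, 580 and 966 CPM) but overlapped between backgrounds in mesenchyme, since the G4 forelimb was at 615 CPM and Dup at 627 CPM. Some of the members with many intronless copies were among the lower ones: the 6 members with 20 or more copies (Rpl21 with 55, Rpl7a with 31, Rpl29 with 28, Rps2 with 25, Rps12 with 22 and Rpl17 with 21) had a median log2 ratio of 0.04 for G4 against C57BL/6, with a range from −0.96 to 0.48, and the others 0.29. Over the 79 members compared, the correlation of copy number with this log2 ratio was 0.10. The part of copies in these differences was not tested.

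Cell classes were read against the mesenchyme of the same library, which keeps strain and library constant. Muscle, whose cells at this stage are migrating and early myogenic cells, had 1.19 to 1.26 times the mesenchymal share of ribosomal protein UMIs (mean 1.23 ± 0.029 SD, 6 libraries), and was above 1 in 6 of 6. The AER, the ridge of ectoderm at the limb tip, had 1.16 to 1.254 times (mean 1.21 ± 0.043 SD) with 10 to 82 cells per library, and dorso-ventral ectoderm 1.06 to 1.32 times (mean 1.22 ± 0.093 SD). Keratinocytes had 1.05 to 1.24 times and immune cells 1.02 to 1.13 times. Endothelial cells stayed near mesenchyme, at 0.980 to 1.05 times, and neuronal cells, with 4 to 17 cells, lay at 0.890 to 1.08 times. Muscle cells were deeper than mesenchyme, with medians of 9760 to 16660 against 6611 to 9807 UMIs, while AER cells were not (5691 to 9184 UMIs).

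**Figure D5:**
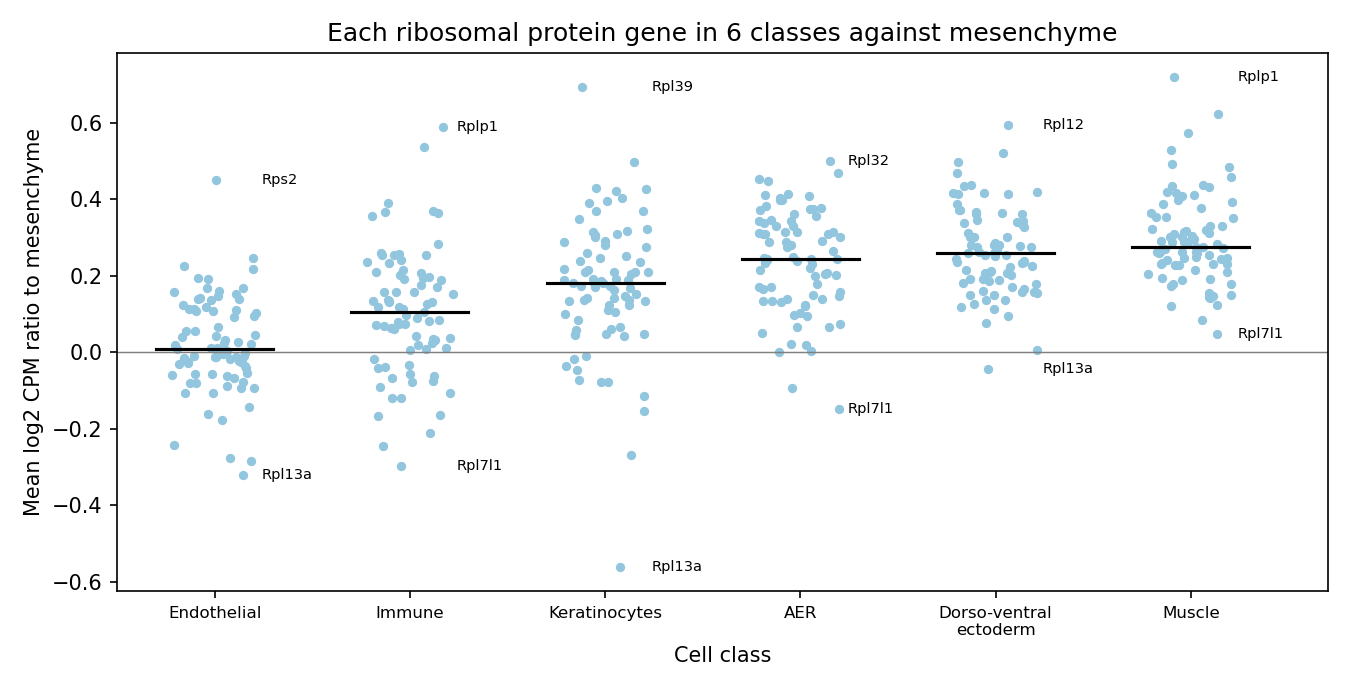
Mean log2 CPM ratio to mesenchyme of the same library (vertical axis) in 6 cell classes (horizontal axis), 1 point per member of 100 CPM or more. Nearly all points lie above 0 in muscle, where Rplp1 leads at 0.72, and they spread around 0 in endothelial cells.

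The higher share in muscle was spread over the whole set. Of 79 members with 100 CPM or more, 78 were higher than in mesenchyme in all 6 libraries and 0 lower, where 29.7% and 43.8% of genes were. In the AER 60 were higher and 0 lower (18.1% and 36.4% of genes), and in dorso-ventral ectoderm 61 and 0 (15.9% and 28.6%). In keratinocytes, over the 5 libraries with enough cells, 54 were higher and 3 lower (22.5% and 39.5%), in immune cells 32 and 6 (22.2% and 42.5%), and in endothelial cells 18 and 13 (27.1% and 35.1%). Among cells with over 3000 detected genes the AER count was 33 and the muscle count 78. The share over all genes is not given at that limit, so these counts have no background beside them. With each gene as a share of the member UMIs alone, a scale on which other genes have no value, 21 members were higher and 28 lower in muscle, 12 and 16 in the AER, and 17 and 21 in dorso-ventral ectoderm.

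Rplp1 led in muscle. It is an acidic protein of the stalk that recruits elongation factors, and its level in muscle was 5623, 5978, 7475, 7075, 6408 and 6664 CPM in the C57BL/6, Dup, G4 hindlimb, Inv1 hindlimb, G4 forelimb and Inv1 forelimb libraries, against 3325, 3600, 4585, 4462, 3660 and 4260 CPM in mesenchyme. The mean log2 ratio was 0.72 ± 0.060 (SD, 6 libraries). Its stalk partners Rplp0 and Rplp2 were 0.49 ± 0.057 and 0.44 ± 0.049 above mesenchyme. Rps12 was next among the named genes, at a mean of 4464 CPM against 2900 CPM (0.62 ± 0.061), and Rps2 at 4599 CPM against 3075 CPM (0.57 ± 0.070). The paralogs Rpl22l1 (1518 against 1053 CPM, log2 ratio 0.53) and Rps27l (815 against 593 CPM, 0.46) exceeded mesenchyme by more than their partners Rpl22 (0.24) and Rps27 (0.12) did. Not every paralog did so: Rpl7l1 was below mesenchyme in the G4 forelimb (131 against 135 CPM) and the Inv1 forelimb (138 against 153 CPM). Its partner Rpl7 was above mesenchyme there (2352 against 2140 CPM and 2712 against 2484 CPM). In the hindlimbs Rpl7l1 was above mesenchyme, at 165 against 160 CPM in G4 and 159 against 143 CPM in C57BL/6.

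In the AER Rpl23, which also binds Mdm2, was at 6395 against 4656 CPM in mesenchyme (log2 ratio 0.45 ± 0.109) and Rpl10a at 2830 against 2191 CPM (0.37). In dorso-ventral ectoderm Rpl12 was at 3266 against 2130 CPM (0.60), Rps2 at 4378 against 3075 CPM (0.52) and Rpl35 at 1160 against 832 CPM (0.47). In keratinocytes Rpl39 was at 4620 against 2858 CPM (0.69 ± 0.072 over 5 libraries), Rpl32 at 5266 against 3731 CPM (0.50) and Rps20 at 6503 against 4892 CPM (0.40).

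Some members were lower in keratinocytes, immune and endothelial cells in every library compared (5 for keratinocytes and 6 for the others). Rpl13a, which also takes part in translational silencing by the GAIT complex, was at 211 against 313 CPM in keratinocytes (log2 ratio −0.56) and at 242 against 304 CPM in endothelial cells (−0.32). Rpl7l1 and Rpl10 were slightly lower in keratinocytes (−0.27 and −0.08). Rps27 was lower in endothelial (−0.24) and immune cells (−0.17), Rps26 in endothelial cells (3342 against 4057 CPM, −0.28), and Rpl15 and Rpl7a in immune cells (−0.21 and −0.16). In immune cells Rplp1 was higher by 0.59, Rps12 by 0.54 ± 0.025 and Rpsa, also known as a laminin receptor, by 0.39, and in endothelial cells Rps2 (0.45), Rpl28 (0.22) and Rpl23 (0.19) were higher. Over the 2 libraries with enough neuronal cells, Rplp1, Rpl39 and Rplp0 were higher (0.42, 0.43 and 0.40) and Rps15, Rpl23a and Rpl13a lower (−0.14, −0.12 and −0.17).

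Over the coding sequence Rpl36al was 87.85% identical to Rpl36a, Rpl39l 85.26% to Rpl39, Rps27l 76.08% to Rps27, Rpl22l1 66.93% to Rpl22 and Rpl7l1 50.12% to Rpl7. The proteins they code for were 100%, 94.12%, 96.43%, 70.31% and 40.74% identical, in the same order. In mesenchyme of the G4 hindlimb Rpl36al was at 465 CPM and Rpl36a at 1754 CPM, Rps27l at 764 CPM and Rps27 at 2192 CPM, and Rpl22l1 at 1177 CPM and Rpl22 at 2136 CPM. Each of these 3 paralogs was below its partner there.

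Disease and pathway groups within the set were put beside the whole set. Of the 14 genes on the Diamond-Blackfan list used here, 3 were lower and 0 higher in Dup, beside 5 and 0 of 81 members. Of all genes, 10.7% were lower and 2.07% higher. The 3 were Rps29, Rps28 and Rpl35, so listed genes made up 3 of the 5 lower members. Rpl5 and Rpl11 were listed with the 5S particle and not among the 14. The 14 had a median log2 ratio of 0.06, beside 0.10 for all members. In G4 against C57BL/6, 7 were higher and 0 lower, beside 33 and 2 of 81 members and 6.72% and 22.9% of genes (median 0.32 beside 0.28). The stalk genes Rplp0, Rplp1 and Rplp2 had summed ratios of 1.08 in Dup, 0.974 in the Inv1 hindlimb, 1.19 in the Inv1 forelimb, 0.797 for the G4 forelimb and 1.22 for G4 against C57BL/6, and the 5S particle genes Rpl5 and Rpl11 1.05, 0.930, 1.10, 0.832 and 1.17. A pyrimidine run of a C followed by at least 4 C or T letters, within 5 bases of the RefSeq start (GRCm38.p6), was found at 29 of 61 members matched (47.5%) and at 23.9% of 10108 genes.

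Genes outside the rule that share the TOP tract or act on ribosomes were read beside the members. The 18 other TOP genes had median log2 ratios of 0.09 in Dup, −0.05 in the Inv1 hindlimb, 0.10 in the Inv1 forelimb, −0.20 for the G4 forelimb and 0.02 for G4 against C57BL/6, of which 0, 0, 0, 3 and 4 were higher and 0, 0, 3, 6 and 3 lower. Of all genes, 2.07%, 2.96%, 2.64%, 50.5% and 6.72% were higher and 10.7%, 1.18%, 33.3%, 7.93% and 22.9% lower. The 17 ribosome assembly genes, such as Ncl and Fbl, had medians of 0.12, 0.07, −0.07, 0.14 and −0.03. The 75 genes of the mitochondrial ribosome, a separate machine that translates mitochondrial mRNAs, had medians of 0.09, −0.03, 0.13, −0.27 and 0.13 over the 74 measured, with 2 higher and 24 lower in the G4 forelimb (50.5% and 7.93% of genes). Mutants of Rpl38, Rpl24 and Rps7 change the tail or skeleton of mice, and of these 1 of 3 was lower in Dup (Rpl38) and 0 of 3 in either Inv1 comparison.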

How the data were processed

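The files deposited hold unnormalised UMI counts for each gene in each cell. Per the study's methods, reads were aligned to a custom mm9 reference by Cell Ranger version 3 (mm10 is also named in the submitters' processing notes). The annotation release and any use of strand are not given in the sources used here. The authors filtered cells on the number of genes detected, on the mitochondrial share and on doublet scores from Scrublet, and named the classes from Louvain clusters and markers. The fraction of UMIs on ribosomal genes per cell that the authors deposited for the C57BL/6 and Dup cells served as a check. It exceeded the member share by a median of 0.78 percentage points (0.128 to 1.55) over 6944 cells.

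Some deposited cells had fewer than 2000 detected genes and were left out, and no further doublet step was run. UMIs were summed per gene, class and library and scaled to the 15668 genes in both matrices (CPM). Entries with no symbol (1124) stayed in the totals. Log2 ratios had 0.5 counts added. Shares have exact binomial intervals and ratios intervals at 95%. The joint test used edgeR 4.0.16, with DESeq2 1.42.0 as an alternative (R 4.3.3), tested first on simulated data. Copies were found with BLAST+ 2.17.0. Python 3.11.15 did the rest.

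The members and all gene lists (Diamond-Blackfan, stalk, 5S particle, tail and skeletal mutants, other TOP genes, assembly, mitochondrial ribosome, pseudogene entries) were chosen with earlier results of these data known. Named genes were the 5 highest and 5 lowest members in mesenchyme, the 3 highest and 3 lowest log2 ratios per comparison and the 3 steadiest deviations per class and direction (100 CPM or more), and list members. The split by coding length and the backgrounds without overlap were read after the values were seen. In all, 13 columns of per-cell values were not used, and a separate hindlimb matrix was not used because its gene file holds barcodes. The values of a few named genes and 1 coding sequence are not reported here.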

Additional observations from a re-analysis of the deposited data

Results flagged for a closer look

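In mesenchyme, muscle and endothelial cells the ratio of Inv1 to G4 in the ribosomal protein share of class UMIs pointed opposite ways in the hindlimb and the forelimb, and this difference was not tested. In mesenchyme it was 0.972 in the hindlimb and 1.19 in the forelimb, in muscle 0.986 and 1.18, and in endothelial cells 0.939 and 1.20. Neuronal cells, 4 to 17 per library, had 0.957 and 1.29. The ratio was above 1 in both limbs in the AER (1.01 and 1.18), dorso-ventral ectoderm (1.03 and 1.22), keratinocytes (1.08 and 1.17) and immune cells (1.04 and 1.26). Each limb has 1 library per genotype. The G4 forelimb had the lowest mesenchymal share of the 6 libraries (19.1%) and the G4 hindlimb the highest (24.1%), and the Inv1 forelimb (22.7%) and hindlimb (23.5%) lay between them.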

How the results depend on the processing

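Over the alternatives, the direction of each summed share ratio held. For Dup against C57BL/6 the ratio was 1.02 with over 3000 detected genes, 1.09 as a mean over cells, 1.08 in cells thinned to 4000 UMIs, 1.06 without haemoglobin and 1.09 without members of up to 300 coding bases. For Inv1 against G4 it was 0.975 with over 3000 detected genes and 0.962 without the short members in the hindlimb, and 1.19 with over 1000 detected genes, 1.19 as a mean over cells, 1.19 thinned and 1.18 without the short members in the forelimb. For the G4 forelimb against the hindlimb it was 0.801 with over 3000 detected genes, 0.786 as a mean over cells, 0.788 thinned and 0.782 without the short members. For G4 against C57BL/6 it was 1.18 and 1.12 with over 1000 and 3000 detected genes, 1.23 as a mean over cells, 1.22 thinned, 1.17 without haemoglobin, 1.18 with canonical subunits only and 1.17 without the short members. Median-of-ratios scaling takes the median log2 ratio over genes from every gene (−0.10, 0.05, −0.18, 0.39 and −0.13 in the 5 comparisons). It gave 4 members higher in Dup, 73 higher in the Inv1 forelimb, 79 lower in the G4 forelimb and 54 higher in G4 against C57BL/6. The share over all genes is not given at that scaling, so these counts have no background beside them. Relative to the median member, 8 were lower in Dup, 0 higher and 2 lower in the Inv1 forelimb, 4 higher and 0 lower in the G4 forelimb, and 5 higher and 6 lower in G4 against C57BL/6. With over 3000 detected genes 1 was lower in the Inv1 forelimb and 21 were higher in G4 against C57BL/6. As a mean over cells 1 was higher in Dup, and with a minimum of 100 CPM 0 were higher in the G4 forelimb. In the class contrasts 33 members were higher in the AER with over 3000 detected genes, and within the members 12 were in the AER, 17 in dorso-ventral ectoderm and 21 in muscle. For the member counts under these alternatives the share over all genes is not given, so they also stand without a background. Except where the scaling itself sets the change, the cause was not tested. After adjustment the joint test gave 0 members under every alternative run. No paired analysis was possible because the groups share only 1 replicate number. The main limits are the single library per group, the G4 forelimb library and the few AER and neuronal cells.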

Other observations

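The ribosomal protein pseudogene entries that the membership rule left out had low counts, in an order over libraries unlike that of the members. In mesenchyme the 7 of them summed to 88.5 CPM in C57BL/6, 94.5 CPM in Dup, 182 CPM in the G4 hindlimb, 179 CPM in the Inv1 hindlimb, 124 CPM in G4 forelimbs and 174 CPM in Inv1 forelimbs. The G4 forelimb sum lay above those of C57BL/6 and Dup, although its member share in mesenchyme was the lowest (19.1%). The sum of these entries was 2.06 times as high in G4 as in C57BL/6 hindlimbs, beside 1.18 times for the members. Of the 5 measured entries 5 were higher, where 6.72% of all genes and 33 of 81 members were. Strain and count matrix cannot be told apart in this comparison.

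Among other genes with a TOP tract, Tpt1 and Fau were read between the backgrounds. Tpt1, a growth-related protein, was at 3059 CPM in C57BL/6, 3197 CPM in Dup and 5080, 4637, 4162 and 5047 CPM in the G4 hindlimb, Inv1 hindlimb, G4 forelimb and Inv1 forelimb. The libraries of the backgrounds did not overlap. Fau, which codes for a small subunit protein fused to a ubiquitin-like domain, had 3851 and 4210 CPM in C57BL/6 and Dup and 3832, 3733, 3033 and 3546 CPM in the others, lower in all 4. These genes were picked out after their values were seen.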
